A study of Mus musculus with 4 samples.

Results

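The Iroquois family of homeobox transcription factors (Irx1 to Irx6) was followed through 4 single-cell RNA libraries of mouse embryonic hearts at E10.5. The members were the 6 rows whose gene symbol is Irx1, Irx2, Irx3, Irx4, Irx5 or Irx6, of 32285 genes in the files. The rule used names and no measured value, but the family was chosen with earlier results of these data known. Hearts of C57BL/6J embryos, either wild-type (Wt) or homozygous for Cyp51 I383V/I383V (Ho), were dissociated and loaded on a droplet system, and each genotype gave 2 libraries, Wt1 and Wt2 from the former and Ho1 and Ho2 from the latter. Cyp51 encodes a sterol demethylase of cholesterol synthesis, and the study asked what happens in hearts that carry the substitution in both copies, in every cell. The labels give CRISPR/Cas9 as the treatment of all 4 libraries, the wild-type ones included, and the study's methods describe a knock-in line kept on C57BL/6. How many embryos or litters entered a library is not given in the sources used here, so a p-value between the genotypes measures the spread between these libraries only. Each value is a count of unique molecular identifiers (UMIs), 1 per captured mRNA molecule, read near the 3′ end of the transcript.

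Iroquois factors belong to the TALE class of homeodomain proteins, named for a loop of extra amino acids, together with the Meis, Pbx, Pknox and Tgif families, and bind DNA to activate or repress transcription. In mammals they lie in paired clusters on separate chromosomes, and each member has a place of its own in the developing heart. Irx4 is known as a ventricular factor that holds back atrial genes, Irx3 as a factor of the trabeculae and later the fast conduction system, Irx5 as a factor that grades repolarization across the ventricular wall, Irx1 and Irx2 as genes of the ventricular septum, and Irx6 is the least studied.

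On GRCm38 with GENCODE M21, one cluster lay on chromosome 13, with Irx1 (ENSMUSG00000060969) at chr13:71957921-71963723 on the minus strand, Irx2 (ENSMUSG00000001504) at chr13:72628820-72634198 on the plus strand and Irx4 (ENSMUSG00000021604) at chr13:73260479-73269608 on the plus strand. The other lay on chromosome 8, with Irx3 (ENSMUSG00000031734) at chr8:91798525-91802067 on the minus strand, Irx5 (ENSMUSG00000031737) at chr8:92357625-92376286 on the plus strand and Irx6 (ENSMUSG00000031738) at chr8:92674288-92680956 on the plus strand. Gaps between neighbours were 665 kb for Irx1 and Irx2, 626 kb for Irx2 and Irx4, 556 kb for Irx3 and Irx5, and 298 kb for Irx5 and Irx6. The 90 bases below, from the coding exon that holds the homeobox and its TALE loop, are shown because they are what makes these genes a family, and because a reader may ask whether reads could be shared between members. Capitals mark the bases that are the same in all 6 members, 81 of 90, and lower case marks the 9 that differ.

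Irx1: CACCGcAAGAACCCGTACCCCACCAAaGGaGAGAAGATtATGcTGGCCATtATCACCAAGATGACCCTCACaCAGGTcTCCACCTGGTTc
Irx2: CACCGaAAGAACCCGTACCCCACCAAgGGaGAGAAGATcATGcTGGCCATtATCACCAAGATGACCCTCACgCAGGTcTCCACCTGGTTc
Irx3: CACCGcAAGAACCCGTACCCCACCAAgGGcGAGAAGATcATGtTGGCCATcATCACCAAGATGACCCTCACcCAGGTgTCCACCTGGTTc
Irx4: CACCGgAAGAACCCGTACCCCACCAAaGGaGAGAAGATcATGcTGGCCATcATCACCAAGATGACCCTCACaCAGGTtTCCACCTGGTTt
Irx5: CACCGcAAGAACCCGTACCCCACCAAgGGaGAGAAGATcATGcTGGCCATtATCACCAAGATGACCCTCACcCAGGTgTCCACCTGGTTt
Irx6: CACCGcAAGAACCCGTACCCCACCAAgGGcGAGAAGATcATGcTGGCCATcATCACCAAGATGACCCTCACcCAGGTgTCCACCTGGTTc

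Identity over this window ranged from 92.22% (Irx1 with Irx3, and Irx3 with Irx4) to 98.89% (Irx3 with Irx6). The windows lie at chr13:71960028-71960117 in exon 2 of 4 of Irx1, chr13:72630727-72630816 in exon 2 of 5 of Irx2, chr8:91800532-91800621 in exon 2 of 4 of Irx3, chr13:73267586-73267675 in exon 5 of 6 of Irx4, chr8:92359690-92359779 in exon 2 of 5 of Irx5 and chr8:92677299-92677388 in exon 4 of 6 of Irx6. The last 500 bases of the transcripts, where a 3′ assay reads, shared 0 stretches of 31 bases with each other in any pair of members. Compared with the whole transcripts of the other member, these ends shared 35 such stretches between Irx2 and Irx5 and 2 between Irx1 and Irx2, and 0 in the other pairs, so reads of those pairs could be shared in part. Irx3 overlaps Irx3os on the opposite strand and Irx6 overlaps Gm45505, which had 0 UMIs. The study's methods name Cell Ranger at its default settings, which for 3′ libraries count reads on the gene's own strand.

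The files held 109893733 UMIs for Wt1, 117034633 for Wt2, 127018819 for Ho1 and 107377100 for Ho2. After limits on mitochondrial share, UMIs and genes and the removal of likely doublets, 8908, 7154, 6980 and 6126 cells were used, with a median of 10561, 14215.5, 15658 and 15831.5 UMIs per cell. Pairs of libraries shared between 9 and 28 of these cell barcodes. Ho1 stood apart from the other libraries, with 28877 UMIs of Xist and 0 of Y-linked genes against 5, 4 and 2 of Xist and 8808, 9910 and 9657 of Y-linked genes in Wt1, Wt2 and Ho2. The sex of the embryos and the genotype therefore cannot be told apart in Ho1.

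Cells were placed in 6 gates by marker genes other than the Iroquois factors: ventricular (Tnnt2 and Myl2), atrial (Tnnt2 and Stard10), endocardial (Cdh5 and Npr3), Hapln1 mesenchymal, Crabp1 mesenchymal and epithelial (Epcam). The ventricular gate held 715, 1304, 1798 and 989 cells in Wt1, Wt2, Ho1 and Ho2, and the endocardial gate 594, 923, 962 and 503. The Crabp1 gate held 2584, 522, 43 and 428 cells and the epithelial gate 475, 176, 0 and 257, so that Ho1 gave almost no Crabp1 cells and no epithelial cells. Markers that took no part in the gates checked them. All 5 ventricular, 5 endocardial and 5 epithelial markers and 5 cushion mesenchyme markers (in the Hapln1 gate) were highest in their own gate, and 5 of 6 atrial markers were. In the Crabp1 gate 4 of 5 mesenchyme markers were highest, but their summed level there, 659, 560, 655 and 563 CPM (the usual counts-per-total scaling of a gene's UMIs by all UMIs of the same cells) in Wt1, Wt2, Ho1 and Ho2, was close to the 703, 717, 647 and 656 CPM of the Hapln1 gate. All 5 epicardial markers, led by Tcf21, were highest in the Hapln1 gate, which therefore is not cushion mesenchyme alone.

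Irx4 transcripts were almost confined to the ventricular cells, and Irx5 and Irx6 transcripts were mostly endocardial. Those of Irx1, Irx2 and Irx3 were spread over ventricular, epithelial and Crabp1 mesenchymal cells and cells outside the gates. Of the 4600 Irx4 UMIs in the cells used, 85.6% lay in the ventricular gate, which held 16.5% of the cells. Of the 9370 Irx5 UMIs, 61.5% lay in the endocardial gate, which held 10.2% of the cells, and of the 1575 Irx6 UMIs 71.9% did. The ventricular share was 28.3% of the 3532 UMIs of Irx1, 45.9% of the 3392 of Irx2 and 40.3% of the 3929 of Irx3. The Crabp1 gate held 21.5% of the UMIs of Irx1 and 12.1% of those of Irx3, and the epithelial gate 14.6%, 14.6% and 7.81% of those of Irx1, Irx2 and Irx3. Cells outside the 6 gates held 34.7%, 27.1% and 27.2% of the UMIs of Irx1, Irx2 and Irx3. These shares pool libraries with different mixes of cells. The ventricular share was 7.55%, 51.8%, 79.6% and 19.4% for Irx1, 13.7%, 71.7%, 76.02% and 36.4% for Irx2, and 14.3%, 48.1%, 65.4% and 34.6% for Irx3 in Wt1, Wt2, Ho1 and Ho2. Without Ho2 the epithelial shares of Irx1, Irx2 and Irx3 were 5.37%, 8.01% and 3.15%, and without Wt1 the Crabp1 shares of Irx1 and Irx3 were 12.4% and 4.32%. The Crabp1 share of Irx2 also rests on Wt1, at 30.1%, 3.77%, 0.114% and 6.85% in Wt1, Wt2, Ho1 and Ho2. The largest shares of Irx4, Irx5 and Irx6 moved less, to 84.4% to 87.0%, 59.5% to 63.6% and 71.0% to 72.9% with 1 library left out in turn.

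**Figure D1:**
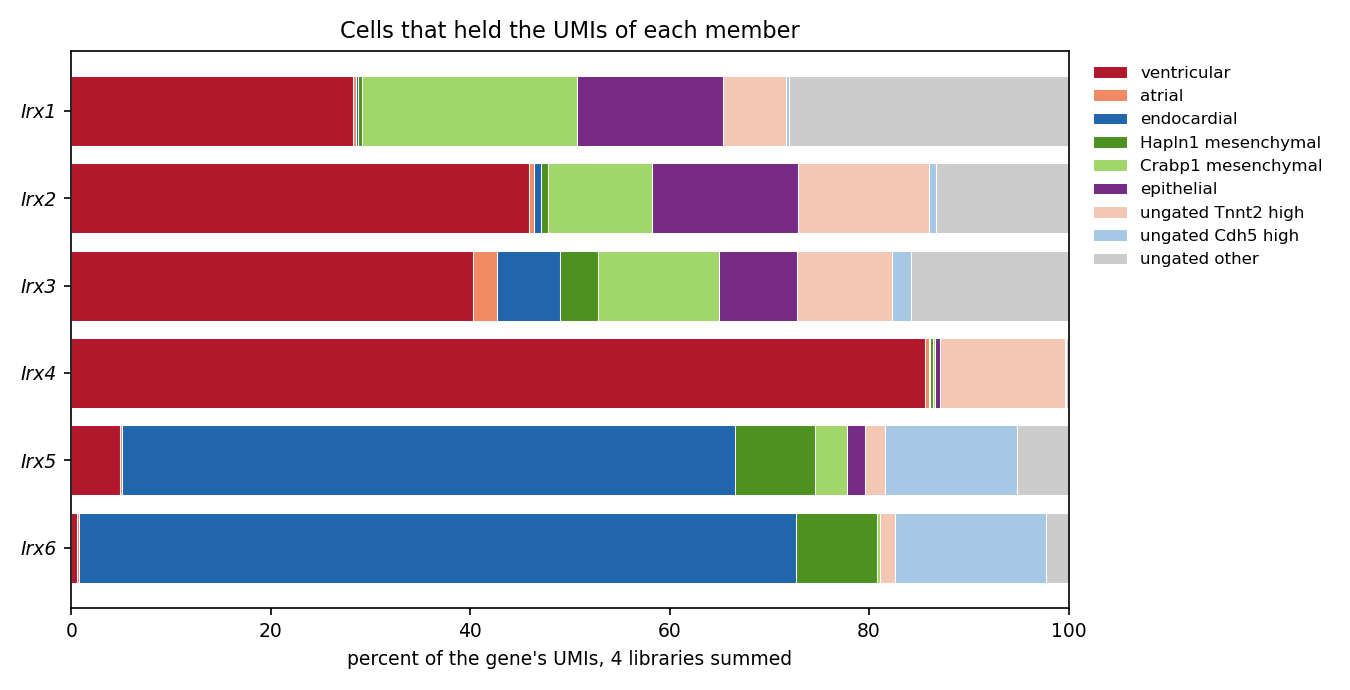
Share of each member's UMIs (percent of all its UMIs in the cells used, 4 libraries summed) that lay in each of the 6 gates and in cells outside them. The ventricular segment takes 85.6% of Irx4 and the endocardial segment 61.5% of Irx5 and 71.9% of Irx6.

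Levels below are CPM, with the UMIs of all cells of a gate in a library summed before scaling. Because they come from 3′ ends they are compared between gates and libraries, not between genes.

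Irx4, the ventricular factor, was measured in the ventricular gate at 44.8, 43.8, 45.9 and 59.7 CPM in Wt1, Wt2, Ho1 and Ho2 (48.6 ± 7.47, SD, n = 4). In the atrial gate it ranged from 0.239 to 0.571 CPM, on 18 UMIs in all. Every ventricular value lay far above every atrial one, with Ho2 the highest of the ventricular values. The difference was 6.96 on the log2 scale (SE 0.22, adjusted p = 9.31e-15, edgeR quasi-likelihood test with Benjamini-Hochberg adjustment over 14480 genes). Against the endocardial gate, where Wt1 and Wt2 held 0 UMIs, Ho1 held 3 and Ho2 held 1, it was 9.34 (SE 0.27, adjusted p = 3.59e-17, edgeR). The epithelial gate came next in order after the ventricular one, at 3.78 CPM in Wt1, 2.55 in Wt2 and 0.806 in Ho2, and did not overlap either the ventricular or the atrial values. Atrial levels followed, then Hapln1 and Crabp1 levels, which overlapped each other and the atrial ones and whose order depends on the 43 Crabp1 cells of Ho1. Endocardial levels came last by their mean only, since Ho1 there (0.170 CPM) lay above Wt2 in the Hapln1 gate (0.132 CPM). The endocardial counts of 0 allow up to 0.334 CPM in Wt1 and 0.178 CPM in Wt2.

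Shares of cells gave the same picture of Irx4 at equal depth. With each cell thinned to 2000 UMIs, an Irx4 UMI was found in 8.60%, 7.82%, 8.50% and 11.1% of the ventricular cells (Wt1, Wt2, Ho1 and Ho2). In atrial cells, which are cardiomyocytes too and should lack the gene, the shares were 0 of 415, 0 of 592, 1 of 677 and 0 of 560 cells. A count of 0 there allows a share of up to 0.723%, 0.507% and 0.536% in Wt1, Wt2 and Ho2, which limits cells with an Irx4 UMI at this depth and not cells that express the gene. Without thinning, 34.5%, 42.5%, 50.7% and 55.9% of ventricular cells had an Irx4 UMI, at median depths of 12072, 18890, 18876 and 20012 UMIs.

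Irx1 and Irx2, neighbours on chromosome 13 with reported roles in the ventricular septum, were ventricular among the heart muscle cells but not limited to muscle. Irx1 stood at 10.2, 10.4, 12.5 and 14.99 CPM in the ventricular gate of Wt1, Wt2, Ho1 and Ho2, and Irx2 at 13.8, 15.7, 20.7 and 22.9 CPM. In the atrial gate Irx1 had 3, 0, 1 and 4 UMIs and Irx2 had 4, 6, 2 and 4. The ventricular values lay above all atrial ones for both genes. The ventricular level exceeded the atrial by 6.24 for Irx1 (log2, SE 0.69, adjusted p = 8.80e-07, edgeR) and by 5.82 for Irx2 (log2, SE 0.50, adjusted p = 2.26e-08, edgeR).

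Irx3, known from trabecular and conduction muscle, was at 17.1, 19.0, 20.5 and 19.1 CPM in the ventricular gate and at 1.44, 2.31, 1.86 and 2.54 CPM in the atrial gate of Wt1, Wt2, Ho1 and Ho2. All ventricular values lay above all atrial ones, but atrial cells were not free of it. The difference was 3.29 (log2, SE 0.42, adjusted p = 5.38e-06, edgeR). Irx5, which is best known from ventricular muscle of later hearts, had 4.61, 4.77, 5.81 and 6.61 CPM in the ventricular gate and at most 0.721 CPM in the atrial gate. That difference was 3.50 (log2, SE 0.41, adjusted p = 1.63e-06, edgeR). Irx6 had 9 UMIs in all ventricular cells and 3 in all atrial cells, and its difference did not pass the test (log2 0.73, adjusted p = 0.603, edgeR). In all, 5 of 6 members were higher in ventricular than in atrial cells and 0 were lower, where 23.2% of all genes tested differed in either direction and 12.7% were higher in ventricular cells.

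**Figure D2:**
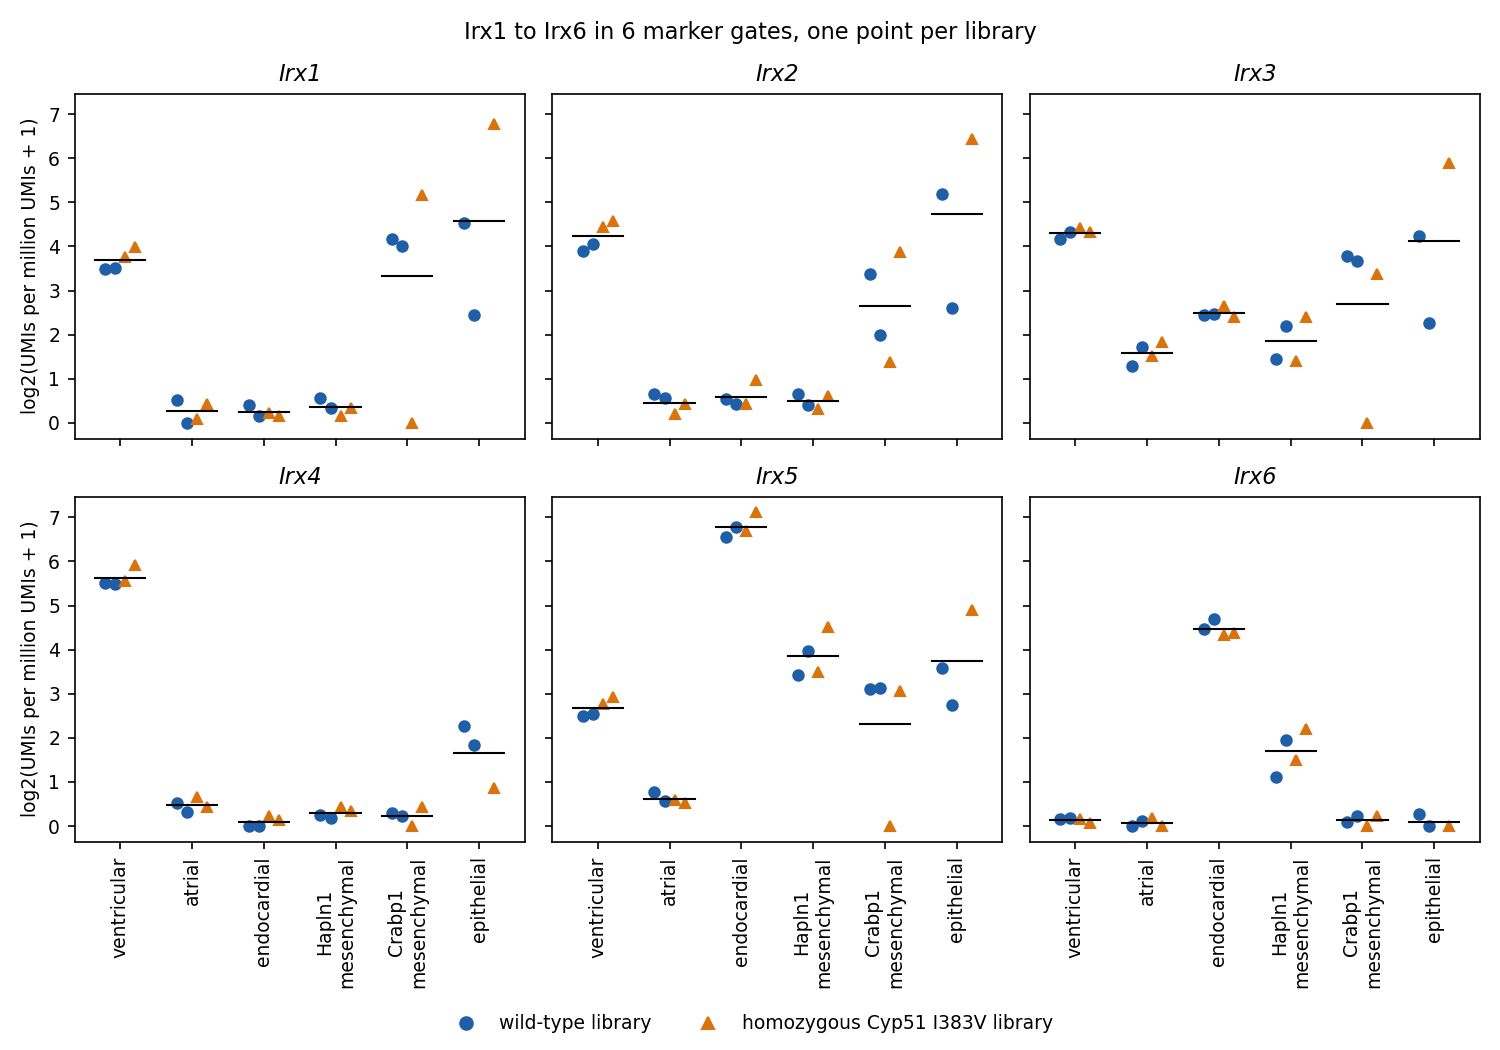
Level of each member, as log2(CPM + 1), in the 6 gates, with 1 panel per gene, 1 point per library (circles Wt, triangles Ho) and a line at the mean of the points. Irx4 stands out in the ventricular gate and Irx5 and Irx6 in the endocardial gate, while the epithelial points of Irx1, Irx2 and Irx3 scatter between libraries.

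Irx5 and Irx6, neighbours on chromosome 8, led in the endocardial gate, the inner lining of the heart. Irx5 was at 92.6, 109, 102 and 137 CPM in Wt1, Wt2, Ho1 and Ho2 there (110 ± 19.3, SD, n = 4), and no other gate came near these values. The epithelial gate (10.9, 5.75 and 28.8 CPM in Wt1, Wt2 and Ho2) and the Hapln1 gate (9.74, 14.6, 10.3 and 21.9 CPM) came next by their means and overlapped each other, and the place of the epithelial gate rests on Ho2, since its Wt2 value lay within the ventricular range. The Crabp1 gate had 7.57, 7.74 and 7.32 CPM in Wt1, Wt2 and Ho2, all above the highest ventricular value of 6.61 CPM. The 43 Crabp1 cells of Ho1 had 0 UMIs, which allows up to 4.81 CPM. Ventricular cells had less Irx5 than endocardial cells by a log2 difference of -4.10 (SE 0.20, adjusted p = 1.12e-13, edgeR). Hapln1 cells, which include cushion mesenchyme, a tissue that arises from endocardium, also had less, with the endocardial level higher by 3.07 (log2, SE 0.19, adjusted p = 5.53e-11, edgeR).

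Irx6 was at 21.3, 24.7, 19.3 and 19.6 CPM in the endocardial gate of Wt1, Wt2, Ho1 and Ho2 (21.2 ± 2.50, SD, n = 4) and at 1.16, 2.89, 1.84 and 3.58 CPM in the Hapln1 gate. The endocardial and Hapln1 values did not overlap, and the difference was 3.26 (log2, SE 0.18, adjusted p = 2.58e-11, edgeR). All other gates were at the limit of detection, with 9 UMIs in ventricular, 4 in Crabp1, 3 in atrial and 1 in epithelial cells. Irx6 was thus lower in ventricular than in endocardial cells by a fitted log2 difference of -7.27 (SE 0.28, adjusted p = 2.56e-15, edgeR), which rests on those 9 ventricular UMIs.

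Irx3 was present in endocardial cells too, at 4.46, 4.51, 5.27 and 4.24 CPM in Wt1, Wt2, Ho1 and Ho2. These values overlapped those of the Hapln1 gate (1.74, 3.62, 1.66 and 4.28 CPM), and the difference did not pass the test (log2 0.84, SE 0.45, adjusted p = 0.145, edgeR). Between ventricular and endocardial cells, Irx1 (log2 6.30, SE 0.66), Irx2 (5.48, SE 0.45), Irx3 (2.24, SE 0.35) and Irx4 were higher in ventricular cells and Irx5 and Irx6 were lower. All 6 members therefore passed the edgeR test, where 69.6% of all genes did, 35.2% higher and 34.5% lower. Between endocardial and Hapln1 cells 2 of 6 members passed, both higher in endocardial cells, against 40% of all genes in either direction and 19.1% higher.

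Endocardial cells with an Irx5 UMI were not richer in Irx6 in a repeatable way. At 2000 UMIs per cell, an Irx5 UMI was found in 16.3%, 19.0%, 17.5% and 24.2% of endocardial cells of Wt1, Wt2, Ho1 and Ho2, and an Irx6 UMI in 4.76%, 4.59%, 3.76% and 4.00%. Irx6 was found in 8.33%, 4.02%, 4.19% and 3.31% of the cells with an Irx5 UMI and in 4.07%, 4.72%, 3.67% and 4.22% of those without. The first share was the higher in Wt1 and Ho1 and the lower in Wt2 and Ho2, and each rests on 4 to 8 cells that held both. Atrial cells, as a background, had an Irx5 UMI in at most 0.179% of cells. Unthinned, 57.4%, 69.3%, 70.1% and 70.4% of endocardial cells had an Irx5 UMI and 20.2%, 27.8%, 23.0% and 24.7% an Irx6 UMI.

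The Crabp1 and epithelial gates carried Irx1, Irx2 and Irx3 with large differences between libraries. In the Crabp1 gate Irx1 was at 16.9 CPM in Wt1, 15.2 in Wt2 and 34.9 in Ho2, Irx2 at 9.36, 2.96 and 13.8 CPM, and Irx3 at 12.8, 11.7 and 9.36 CPM. Ho1, with 43 cells, had 0 UMIs of Irx1 and Irx3 and 1 of Irx2, which allows up to 4.81 CPM for a gene at 0. Compared with the Crabp1 gate, the Hapln1 gate had less Irx1 (log2 -6.14, SE 0.63, adjusted p = 1.41e-07, edgeR), less Irx2 (-4.32, SE 0.56, adjusted p = 3.34e-06, edgeR) and less Irx3 (-2.00, SE 0.44, adjusted p = 0.00107, edgeR). Irx5 (log2 0.89, adjusted p = 0.00619, edgeR) and Irx6 (4.34, adjusted p = 5.96e-07, edgeR) were higher in the Hapln1 gate. The 5 endocardial markers, all above 0 UMIs and led by Egfl7, also summed to more there, at 392, 390, 388 and 491 CPM against 66.7, 67.7, 122 and 94.98 CPM in the Crabp1 gate of Wt1, Wt2, Ho1 and Ho2, and their part in these differences was not tested. So 2 members were higher and 3 lower of 6, against 22.1% and 17.6% of all genes (39.8% in either direction). The call for Irx3 was lost without Wt1 (log2 -1.54, adjusted p = 0.0551, edgeR), and that for Irx5 does not keep its direction when the marker limits of the gates are halved (log2 -0.02).

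In the epithelial gate Irx1 was at 22.1 CPM in Wt1, 4.47 in Wt2 and 109 in Ho2. Irx2 was at 35.5, 5.11 and 85.5 CPM and Irx3 at 17.9, 3.83 and 58.1 CPM in the same libraries. Ho2 was the highest and Wt2 the lowest for each, and the spread between libraries (45.1 ± 55.9 CPM for Irx1, SD, n = 3) was as large as the mean. The epithelial cells were higher than the Crabp1 cells in Irx2 (log2 2.15, SE 0.36, adjusted p = 7.37e-05, edgeR), Irx3 (1.17, SE 0.42, adjusted p = 0.0332), Irx4 (3.26, SE 0.57, adjusted p = 0.000117) and Irx5 (0.93, SE 0.31, adjusted p = 0.0211). That is 4 of 6 members higher and 0 lower, against 37.8% of all genes in either direction and 19% higher. Without Ho2 the differences of Irx3 (log2 0.06, adjusted p = 0.956, edgeR) and Irx5 (0.22) no longer passed. Without Wt1 that of Irx4 did not (log2 2.31, adjusted p = 0.0774, edgeR). Irx1 (log2 0.85, adjusted p = 0.0943, edgeR) passed only without Wt2 (1.22, adjusted p = 0.0220, edgeR) or in the Ho libraries alone, where Ho2 is the single epithelial library, and its direction turned without Ho2 (-0.11) and in the Wt libraries alone (-0.25).

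In the order of mean levels, with the 43 Crabp1 cells of Ho1 left out, Irx1 ran from epithelial through Crabp1 to ventricular cells. The epithelial values overlapped both others, and their place at the top rests on Ho2 (109 CPM). The Crabp1 values (15.2 to 34.9 CPM) lay just above the highest ventricular one (14.99 CPM), and the ventricular values lay clear of all Hapln1, atrial and endocardial ones, which overlapped each other. Irx2 ran from epithelial to ventricular (overlapping) to Crabp1 cells, and the highest Crabp1 value (13.8 CPM in Ho2) reached the lowest ventricular one (13.8 CPM in Wt1) to the digits given. Irx3 ran from epithelial to ventricular (overlapping) to Crabp1, endocardial, Hapln1 and atrial cells, with the top place again resting on Ho2. Its Crabp1 values outside Ho1 (9.36 to 12.8 CPM) lay below the ventricular and above the endocardial ones, and from endocardial cells on each gate overlapped its neighbour.

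Within the ventricle, Irx1, Irx2, Irx3 and Irx5 were higher in cells marked by Bmp10 than in cells marked by Hey2, and Irx4 was not. Bmp10 is a growth factor of the trabeculae, the inner muscle ridges, and Hey2 a repressor of the outer compact layer. Ventricular cells with a Bmp10 UMI and no Hey2 UMI numbered 47, 186, 312 and 137 in Wt1, Wt2, Ho1 and Ho2, and cells with a Hey2 UMI and no Bmp10 UMI numbered 111, 252, 356 and 237. Their median depths were alike, at 18929, 23938, 21772.5 and 23160 UMIs against 19519, 22293.5, 21788.5 and 24076.

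Irx3 was at 32.7, 31.1, 33.9 and 32.7 CPM in the Bmp10 cells of Wt1, Wt2, Ho1 and Ho2 and at 12.8, 11.6, 17.4 and 14.0 CPM in their Hey2 cells. The groups lay far apart, and the difference was 1.19 (log2, SE 0.11, adjusted p = 2.45e-11, edgeR over 10665 genes). Irx1 was at 17.0, 17.5, 21.6 and 26.2 against 8.84, 8.31, 10.1 and 10.0 CPM (log2 1.18, SE 0.13, adjusted p = 3.14e-09, edgeR), without overlap. Irx2 was at 21.8, 28.8, 28.4 and 42.4 against 14.7, 12.4, 22.5 and 20.2 CPM. Its groups overlapped over all libraries, since the Bmp10 cells of Wt1 lay below the Hey2 cells of Ho1, but in every library the Bmp10 cells were higher, and the test within libraries gave 0.79 (log2, SE 0.12, adjusted p = 1.49e-06, edgeR).

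Irx5, low in muscle, was at 12.1, 7.59, 8.47 and 10.9 CPM in Bmp10 cells and at 2.45, 2.96, 4.81 and 4.66 CPM in Hey2 cells of Wt1, Wt2, Ho1 and Ho2, again with no overlap (log2 1.19, SE 0.21, adjusted p = 2.18e-05, edgeR). Irx4 was the exception, at 55.2 ± 8.08 CPM in Bmp10 cells and 51.6 ± 9.03 in Hey2 cells (SD, n = 4). Its difference of 0.04 (log2, SE 0.08, adjusted p = 0.737, edgeR) was smaller than the spread between libraries. Irx6 had 0 UMIs in Bmp10 cells and 3 in Hey2 cells and was not tested. Of the 5 members tested, 4 were higher in Bmp10 cells and 0 lower, against 13.1% of all genes higher and 27.3% in either direction.

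**Figure D3:**
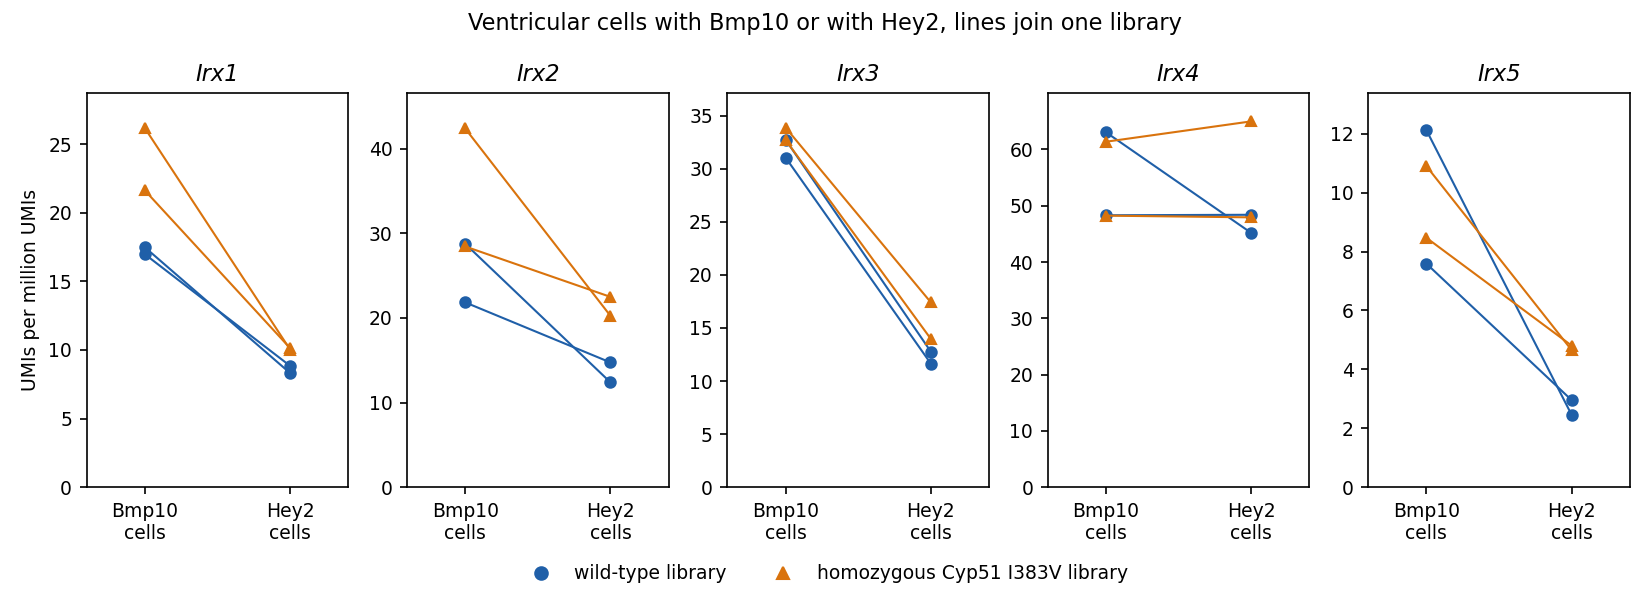
Level (CPM, 1 panel per gene, axes from 0) of Irx1 to Irx5 in ventricular cells with a Bmp10 UMI only and with a Hey2 UMI only, with a line joining the values of 1 library (circles Wt, triangles Ho). The lines of Irx1, Irx2, Irx3 and Irx5 fall from Bmp10 to Hey2 cells in all 4 libraries, and those of Irx4 show no common direction.

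Genes that are known partners or reported targets of Iroquois factors moved with the layers as well. Of the 18 such genes tested between Bmp10 and Hey2 cells (Bmp10 and Hey2 left out), 11 were higher in Bmp10 cells and 4 lower, with a median log2 difference of 0.43 against -0.0013 over all genes. Nppa, a natriuretic peptide of trabecular muscle, was higher by 3.42 (log2, SE 0.06, adjusted p = 5.76e-35, edgeR) and Nppb by 2.43. Gja5, the fast-conducting connexin, was at 26.7, 39.8, 38.9 and 33.0 CPM in the Bmp10 cells of Wt1, Wt2, Ho1 and Ho2 against 2.95, 17.9, 11.3 and 9.13 CPM in their Hey2 cells (log2 1.65, adjusted p = 8.71e-14, edgeR). Gja1, the slower connexin that Irx3 is reported to hold down, was higher in Bmp10 cells too (0.85, adjusted p = 1.01e-10, edgeR), and Id2, an inhibitor of helix-loop-helix factors, was lower (-0.996). Of 10 TALE relatives tested 0 were higher and 2 lower, Tgif2 by -0.37 and Meis2 by -0.28 (log2), with a median of -0.09, and 27.3% of all genes differed in either direction.

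Between ventricular and atrial cells, 8 of 21 partners and targets tested were higher in ventricular cells and 6 lower (median log2 0.03, and 0.03 over all genes), where 12.7% of all genes were higher and 23.2% differed in either direction. The largest were Hey2 (5.72), Myh7, a ventricular myosin (5.55), Hand1, a left ventricular factor (5.17), Cxcl12 (3.19) and the atrial repressor Hey1 (-3.03), all on the log2 scale. Against endocardial cells 17 were higher in ventricular cells and 2 lower, among them the muscle genes Bmp10 (8.60) and Myh7 (8.19), where 35.2% of all genes were higher and 34.5% lower (median log2 2.41, and -0.0004 over all genes). Of 11 TALE relatives tested, 3 were higher in ventricular than atrial cells (Meis2 by 0.96 and Meis1 by 0.46 among them) and 3 lower (Tgif1 by -0.87 and Meis3 by -0.82 among them), and 5 were higher than in endocardial cells and 1 lower (Tgif1, -1.99). Their median log2 differences were 0.10 and 0.12.

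Genes next to the clusters were counted in the same way. The 46 neighbours lie within 500 kb of a member, except Cep72, which was listed by name. Of these, 15 passed the filter on low counts over the gates. Between ventricular and atrial cells 7 were higher and 0 lower (median log2 0.42, against 0.03 over all genes). Of all genes 12.7% were higher and 23.2% differed in either direction. Against endocardial cells 7 were higher and 4 lower, where 35.2% and 34.5% of all genes were. Of 10 tested between Bmp10 and Hey2 cells, 2 were higher in Bmp10 cells (Crnde and Ndufs6, the latter by 0.15) and 3 lower (Lpcat1 by -0.50, Eprn by -0.40 and Mrpl36 by -0.13, log2), where 27.3% of all genes differed in either direction. Crnde, a noncoding transcript that starts 1.505 kb from Irx5, was at 20.8, 25.4, 23.4 and 21.3 CPM in ventricular, 17.8, 22.0, 21.3 and 17.8 CPM in endocardial and only 1.07 to 1.91 CPM in atrial cells. The ventricular and endocardial values overlapped, unlike those of Irx5 itself, and lay above every atrial value (ventricular against atrial log2 4.00, SE 0.51, adjusted p = 4.90e-06, edgeR). In Bmp10 cells Crnde was higher than in Hey2 cells by 1.30 (log2, SE 0.10, adjusted p = 7.09e-14, edgeR), with 42.9 ± 2.66 against 17.6 ± 1.75 CPM (SD, n = 4). Irx3os was higher in ventricular than atrial cells (log2 3.32, adjusted p = 0.000101, edgeR) but reached only 0.680 to 1.07 CPM there. Near Irx4, the noncoding transcript Eprn was higher in ventricular cells by 1.49 against atrial and 6.62 against endocardial cells (log2), and Mrpl36 and Ndufs6, both mitochondrial genes, by 1.006 and 0.76 against atrial cells. Fto, next to Irx3 and a gene of RNA demethylation, stayed between 14.9 and 19.9 CPM in the ventricular, atrial and endocardial values of all 4 libraries.

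The genes whose levels went most like a member's over the 23 sums of library and gate, among 7587 genes, are given as a description, since the sums share libraries and depth. Irx1 and Irx2 were each other's nearest gene (Pearson r = 0.944 over 23 sums). Irx1 was also like Parp1 (0.883), Irx2 like Hmgn3 (0.879) and Sema3c (0.877), and Irx3 like Irx1 (0.869), Irx2 (0.864) and Shmt1 (0.817). Irx4 went with Wdr93 (0.973), Lyz2 (0.960) and Slc25a13 (0.957). Irx5 went with Adam15 (0.918), Tomm34 (0.916) and Slc29a1 (0.914), and Irx6 with Mndal (0.987), Clec4g (0.987) and Lat (0.985). Irx5 and Irx6 had r = 0.852 with each other, and the members nearest to Irx3 lie on the other chromosome.

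The comparison of Ho with Wt asks whether homozygosity for the Cyp51 allele goes with a change of these factors. Cyp51 itself, which carries a substitution and so cannot check the labels by its level, was at 43.4, 47.8, 51.2 and 48.2 CPM in ventricular cells of Wt1, Wt2, Ho1 and Ho2 (log2 0.09, adjusted p = 0.827, edgeR). None of the 16 tests of a member in a gate passed at an adjusted p of 0.05 (edgeR over all genes). In the ventricular gate 0 of 5 members tested passed and 0% of 13217 genes did, while 2 members had an unadjusted p under 0.05, Irx2 and Irx1, as did 1141 genes (8.63%), with 4.86% of all genes higher in Ho. With DESeq2, 0 of the 16 member tests passed and 21 genes did in the ventricular gate.

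Irx2 showed the largest ventricular difference of the 5 members tested on the log2 scale, at 14.8 ± 1.33 CPM in Wt and 21.8 ± 1.59 CPM in Ho (SD, n = 2 each). Each Ho value exceeded each Wt value, and the fitted change was 0.51 (log2, SE 0.11, adjusted p = 0.3498, edgeR). It passed only when the filter on low counts was left out (log2 0.52, adjusted p = 0.0102, edgeR). Irx1 was at 10.3 ± 0.184 and 13.8 ± 1.74 CPM (log2 0.37, SE 0.13, adjusted p = 0.512, edgeR). Irx4 was at 44.3 ± 0.664 and 52.8 ± 9.72 CPM (log2 0.21, SE 0.11, adjusted p = 0.631, edgeR), with Ho1 close to the Wt libraries and Ho2 above. Irx5 was at 4.69 ± 0.118 and 6.21 ± 0.567 CPM (log2 0.36, SE 0.16, adjusted p = 0.579, edgeR) and Irx3 at 18.1 ± 1.32 and 19.8 ± 0.975 CPM (log2 0.09, SE 0.12, adjusted p = 0.842, edgeR).

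In CPM of all UMIs, both Ho libraries exceeded both Wt libraries in 5 of 5 members tested, where 23.8% of all genes tested did. On the scale of the test (TMM) it was 4 of 5, with Irx3 overlapping, where 20.5% of genes did. Markers of other sources also differed between these ventricular sums. Blood genes, led by Hba-x and with all 5 above 0 UMIs, summed to 4.02, 10.2, 296 and 10.8 CPM in Wt1, Wt2, Ho1 and Ho2, and dissociation genes, led by Jun, to 563, 538, 624 and 746 CPM, so that Ho1 and Ho2 were both above Wt1 and Wt2. Their part in the values of the members was not tested.

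The Irx2 difference was followed through the layers, as levels without a test. Bmp10 cells made up 6.57%, 14.3%, 17.4% and 13.9% of the ventricular cells of Wt1, Wt2, Ho1 and Ho2, and Hey2 cells 15.5%, 19.3%, 19.8% and 24.0%. These shares were taken without thinning and move with depth. Median depths of the ventricular cells were 12072, 18890, 18876 and 20012 UMIs in the same order, and the part of depth in the shares was not tested. In Hey2 cells Ho1 and Ho2 had 22.5 and 20.2 CPM and Wt1 and Wt2 14.7 and 12.4 CPM, which do not overlap. In cells with a UMI of both genes Ho1 and Ho2 had 35.6 and 39.1 CPM and Wt1 and Wt2 22.7 and 25.4 CPM, again without overlap. In Bmp10 cells Ho1 (28.4 CPM) lay below Wt2 (28.8 CPM), so that the groups overlapped. In ventricular cells with neither UMI the Ho libraries had 12.4 and 13.2 CPM and the Wt libraries 9.64 and 11.1 CPM. Of the 10665 genes tested between these layers, the Ho values lay above the Wt values without overlap for 18.1% in Hey2 cells, 19.4% in cells with both, 27.5% in cells with neither and 17.5% in Bmp10 cells. The share of ventricular cells with an Irx2 UMI at 2000 UMIs per cell was 1.75% and 2.52% in Wt1 and Wt2 and 3.62% and 4.40% in Ho1 and Ho2. The means of 2.14% and 4.01% gave p = 0.3333 in a two-sided exact permutation test, the smallest p that 2 against 2 libraries allow, and unthinned the shares were 12.0%, 16.3%, 23.7% and 24.2%.

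**Figure D4:**
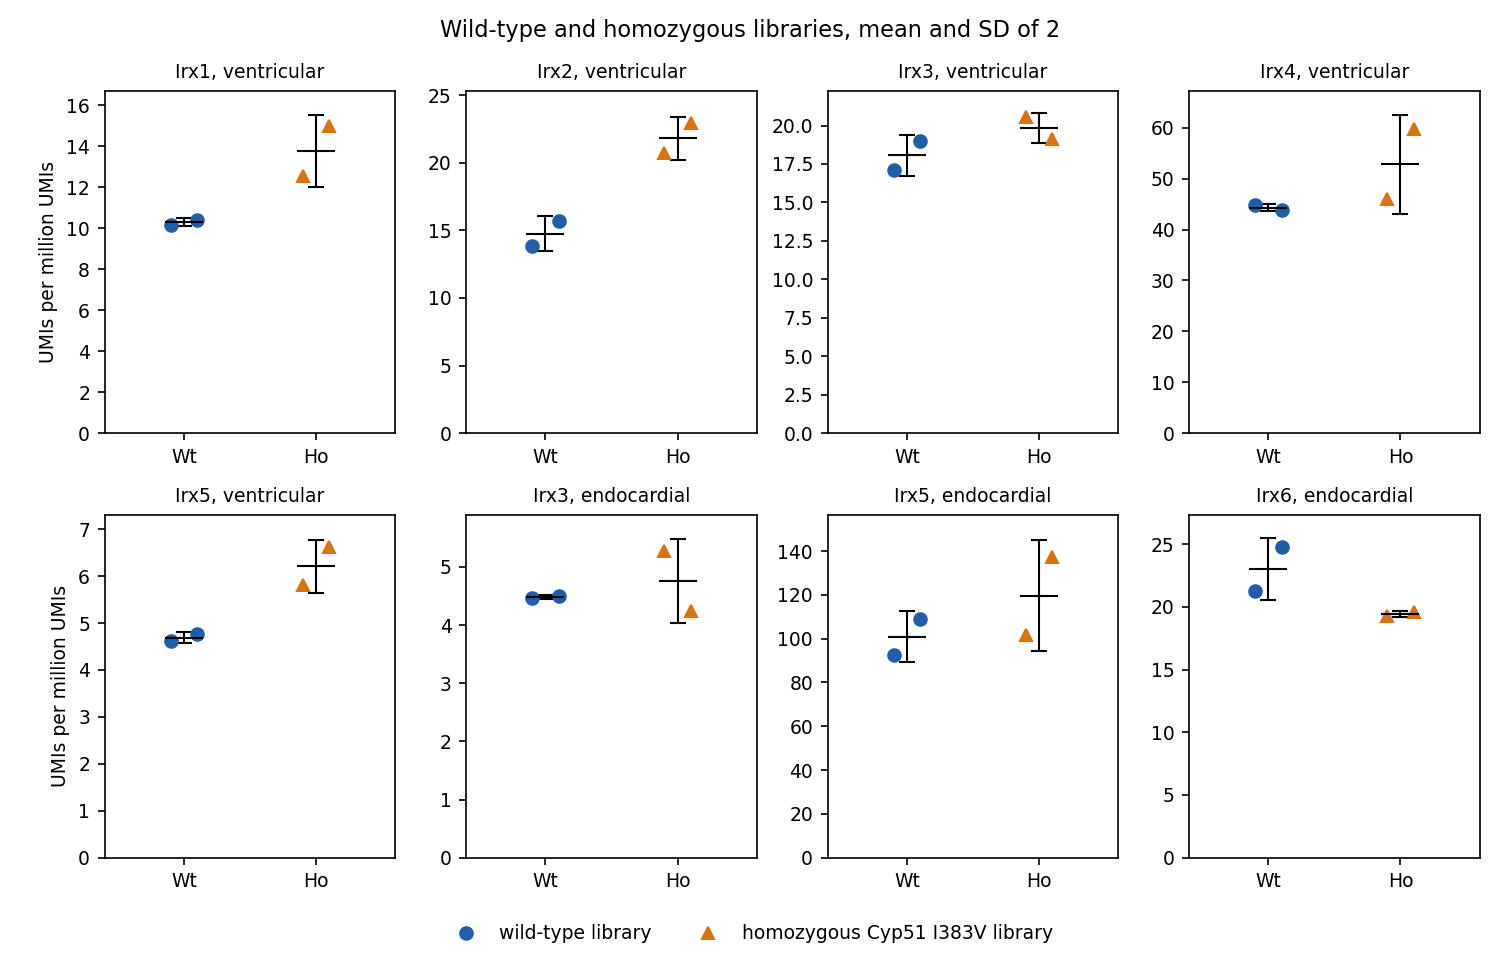
Level (CPM) in Wt and Ho libraries for the 5 members tested in the ventricular gate and the 3 tested in the endocardial gate, with 1 point per library, a line at the mean and bars of 1 SD (n = 2). The Ho points of ventricular Irx2 lie above its Wt points and those of endocardial Irx6 below, and none of these differences passed an adjusted p of 0.05.

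In the endocardial gate 0 of 3 members tested passed, as did 0.024% of all genes. Irx5 was at 101 ± 11.7 CPM in Wt and 120 ± 25.2 CPM in Ho (log2 0.27, SE 0.12, adjusted p = 0.863, edgeR), and its groups overlapped. It was the 1 member of 3 with an unadjusted p under 0.05, as had 5.76% of genes. Irx6 went the other way, at 23.0 ± 2.44 and 19.5 ± 0.240 CPM (log2 -0.21, SE 0.12, adjusted p = 0.884, edgeR), with Ho1 and Ho2 both under Wt1 and Wt2, as in 24% of all genes tested. Irx3 differed by 0.16 (log2, adjusted p = 0.965, edgeR). Blood genes summed to 73.7, 55.2, 405 and 79.2 CPM in endocardial cells of Wt1, Wt2, Ho1 and Ho2, and their part in these values was not tested.

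In the remaining gates the differences of Ho from Wt did not pass either. Irx3, the only member tested in atrial cells, differed by 0.16 (log2, adjusted p = 0.999, edgeR), where 0.0809% of genes passed, 0.0324% higher and 0.0485% lower in Ho. In Hapln1 cells Irx5 (0.37), Irx6 (0.32) and Irx3 (0.05) had adjusted p of at least 0.987 (edgeR), where 0% of genes passed, and the difference of Irx5 turned without Ho2 (-0.23) and with halved gate limits (-0.0054). In Crabp1 cells, where Ho1 gave 43 cells, Irx1 (0.52), Irx2 (0.63), Irx3 (-0.78) and Irx5 (-0.44) had an adjusted p of 0.999 (edgeR), where again 0% of genes passed. Epithelial cells were not compared, since Ho1 held 0 of them and Ho2 would have been the single Ho library.

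Whether a member's genotype difference itself differed between a gate and the ventricular gate was tested in 24 interaction terms, of which 0 passed after adjustment (edgeR), as did 0% of all genes. At an unadjusted p under 0.05 there was 1, Irx4 in endocardial against ventricular cells (log2 3.86), which rests on 4 endocardial UMIs. In the lists, 0 TALE relatives, 0 partners or targets and 0 neighbours passed between Ho and Wt in any gate. In ventricular cells the median log2 difference was 0.14 for the 11 TALE relatives tested, 0.03 for the 22 partners and targets and 0.0032 for the 14 neighbours, against 0.0058 over all genes. Of these genes, Gata4 differed by 0.23 (log2, adjusted p = 0.554, edgeR) and Tbx5 by 0.37 (adjusted p = 0.552, edgeR), both partners of cardiac transcription.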

How the data were processed

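Hearts at E10.5 gave 2 wild-type and 2 Cyp51 mutant libraries, grouped by their labels. The authors deposited raw UMI counts per gene and called cell, and the submitters' processing notes name Cell Ranger 6.1.1, Seurat 4.1.0, mm10 and GRCm38. These counts were used as deposited.

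Cells were kept between 500 and 50000 UMIs and between 500 and 6000 genes, if mitochondrial genes gave no more than 20% of their counts, and the cells with the highest Scrublet scores (scanpy 1.11.5, Python 3.11.15) were removed at a rate of 0.8% per 1000 cells. A gate marker was high above its Otsu limit over all cells, taken on UMIs per cell total, or above a fixed minimum where that limit was lower (Npr3, and also Cdh5 with doublets kept or 10% mitochondrial counts), and gates were exclusive, so that 37.0% of the 29168 cells stayed outside them. UMI counts were summed per library and gate (at least 20 cells). edgeR 4.0.16 in R 4.3.3 tested them by the quasi-likelihood method with TMM and filterByExpr, and p-values were adjusted over all genes tested (Benjamini-Hochberg, threshold 0.05). Ho and Wt were compared within a gate, gates in 1 fit with the library as a block, and genotype effects between gates as an interaction. Against TMM, CPM of all UMIs shift every gene's log2 difference by -0.12 between ventricular and atrial, -0.28 between ventricular and endocardial and 0.15 between epithelial and Crabp1 cells, and by under 0.1 between the other gates compared. Shares of cells came from cells thinned to 2000 UMIs, leaving out shallower cells (145, 192, 139 and 79 ventricular cells in Wt1, Wt2, Ho1 and Ho2). A count of 0 was given a limit of 3 counts, which covers counting error only.

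On simulated data edgeR recovered 148 of 200 genes changed by 1 on the log2 scale between Ho and Wt in 13217 genes of the ventricular gate and 192 changed by 2, with 7 and 14 false calls. Between the ventricular and endocardial gates it recovered 146 and 185 of 200 in 14480 genes, with 11 and 19 false calls. The members were given by name. Other genes named were, per list and comparison, up to 5 called genes with the largest change, or the 2 with the lowest p, and others among the listed genes were chosen after their values were seen. Some genes that this rule names are not reported here. Pooled UMI shares without 1 library were added after seeing the data. The members and lists were chosen with earlier results of these data known. Alternatives were DESeq2 1.42.0, RLE, no filter, a replicate block, leaving out a library, 1 genotype alone, other gate limits, 10% mitochondrial counts, doublets kept and 5000 UMIs or no thinning. Positions and sequences are from GRCm38 with GENCODE M21, which holds 99.61% of the gene identifiers.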

Additional observations from a re-analysis of the deposited data

Results flagged for a closer look

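A part of each member's UMIs lay in cells outside the 6 gates, which the comparisons do not use. It was 34.7% of the UMIs of Irx1, 27.1% of Irx2, 27.2% of Irx3, 12.9% of Irx4, 20.4% of Irx5 and 18.9% of Irx6, where 37.0% of all cells used were outside the gates. For Irx4 nearly all of it, 12.5% of its UMIs, came from ungated cells with high Tnnt2. For Irx5 and Irx6 the ungated cells with high Cdh5 held 13.2% and 15.2%. For Irx1, 28.1% of its UMIs lay in ungated cells with neither marker, at 25.6, 6.38, 0.310 and 26.9 CPM in Wt1, Wt2, Ho1 and Ho2.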

How the results depend on the processing

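Of the values of members between gates under the alternatives, 359 kept their direction and side of the threshold, 9 lost a call, 4 gained one and 5 reversed; between Ho and Wt the numbers were 102, 0, 1 and 5. Those reversed were, for Ho against Wt, ventricular Irx3 without Ho1 (-0.0011), endocardial Irx3 without Ho1 (-0.0679) and with halved gate limits (-0.0236), and Hapln1 Irx5 without Ho2 (-0.2283) and with halved limits (-0.0054). Between gates they were Irx5 in Hapln1 against Crabp1 cells with halved limits (-0.0188), Irx1 in epithelial against Crabp1 cells without Ho2 (-0.1138) and in the Wt libraries alone (-0.2474), Irx3 there in the Wt libraries alone (-0.0373), and Irx4 in Bmp10 against Hey2 cells in the Ho libraries alone (-0.0094). At 5000 UMIs per cell the share of ventricular cells with an Irx3 UMI was lower in Ho by -0.0814 percentage points, the reverse of 2000 UMIs. Shares in other cells turned as well. Among them, Ho minus Wt was -0.314 at 2000 and 0.246 at 5000 UMIs for endocardial Irx3. For Irx3 in Hey2 cells it was 0.785 and -1.63 percentage points. Leaving out 1 library in turn, the log2 differences ranged from -0.0011 to 0.1756 for ventricular Irx3, from -0.0679 to 0.3021 for endocardial Irx3, from -0.2283 to 0.8266 for Hapln1 Irx5 and from -0.1138 to 1.2356 for epithelial Irx1. The call gained between Ho and Wt was ventricular Irx2 without the filter on low counts (0.52, adjusted p = 0.0102, edgeR).

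Irx3 in endocardial against Hapln1 cells passed without Ho2 (1.09, adjusted p = 0.0490, edgeR) and with doubled limits (1.37, adjusted p = 0.0435). The call for Irx3 in Hapln1 against Crabp1 cells was also lost in the Ho libraries alone (-1.47, adjusted p = 0.0686), and in epithelial against Crabp1 cells it was lost with DESeq2 (1.25, adjusted p = 0.0706) and without Ho1 (1.12, adjusted p = 0.0526), that of Irx4 in the Ho libraries alone (1.33), where Ho2 is the single epithelial library, and that of Irx5 in the Wt libraries alone (0.17). The causes were not tested.

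Numbers of genes called between Ho and Wt moved more. In ventricular cells (0 called) DESeq2 called 21, no filter 197, and leaving out 1 library 22 to 70. In each of these comparisons leaving out 1 library leaves 1 genotype with a single library, which is assumed to vary like the other genotype. In atrial cells (10) the numbers were 6, 57 and 26 to 58, in endocardial cells (3) 18, 160 and 5 to 105, in Hapln1 cells (0) 12, 164 and 1 to 42, and in Crabp1 cells (0) no filter gave 117 and leaving out 1 library 0 to 12. In endocardial cells doubled limits called 24 and halved limits 1. Fewer libraries called fewer genes between gates: for ventricular against atrial cells (3358) the Wt libraries alone gave 1102 and the Ho libraries alone 2224, for endocardial against Hapln1 (5796) the Wt libraries 2936, for Hapln1 against Crabp1 (5756) 3599 and 2400, and for epithelial against Crabp1 (5477) 3471 and 2778. For Bmp10 against Hey2 cells (2912) DESeq2 gave 1276, no library block 1360 and the Wt libraries alone 988. For the interactions (0 called), leaving out 1 library gave 0 to 1 in atrial, 0 to 1 in Hapln1 and 0 to 25 in Crabp1 cells.

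With the replicate number as a block, 17, 53, 9 and 84 genes were called in ventricular, atrial, endocardial and Hapln1 cells, and no member was. Deviations of Wt1 and Ho1 from their genotype means correlated at -0.0125, -0.0342, -0.0572, 0.107 and -0.180 in ventricular, atrial, endocardial, Hapln1 and Crabp1 cells. With 2 libraries per genotype, the deviations of Wt2 and Ho2 mirror them. These values therefore cannot decide whether libraries of the same number belong together. With crossed numbers as the block in Crabp1 cells, 0 members passed. Changes under 1 on the log2 scale were not simulated, so the smallest change detectable with 2 libraries per genotype was not tested.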

Other observations

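In ungated cells with high Tnnt2, which took no part in any test, Irx2 was at 5.21 and 7.36 CPM in the Wt libraries and at 11.9 and 13.0 CPM in the Ho libraries. Irx1 was at 2.44 and 3.09 CPM in Wt and at 6.42 and 6.55 CPM in Ho, and Irx4 at 6.67 to 10.2 CPM in Wt and 12.8 to 18.6 CPM in Ho. For these 3 members each Ho value exceeded each Wt value, as it did for 17.2% of the 13217 genes tested in the ventricular gate. The groups overlapped for Irx3, at 7.65 to 9.06 CPM in Wt and 8.23 to 9.18 CPM in Ho, for Irx5, at 2.77 and 4.27 CPM in Wt and 6.28 and 3.47 CPM in Ho, and for Irx6, at 0.302 to 0.759 CPM.

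Between the other gates compared, TALE relatives were lower in endocardial than in Hapln1 cells in 4 of 11 tested (Pknox2 by -2.57, Meis3 by -1.71, Pbx4 by -1.46 and Tgif1 by -1.01 on the log2 scale) and higher in 0 (median -0.23, and -0.0039 over all genes, where 20.9% were lower). In Hapln1 against Crabp1 cells 1 was higher (Tgif1, 0.57) and 6 were lower, among them Meis1 (-1.02), with a median of -0.45, against 0.01 over all genes, of which 22.1% were higher and 17.6% lower. In epithelial against Crabp1 cells Pbx4 was higher (1.99) and Meis1 (-1.21) and Pbx3 (-1.03) were lower of 11 tested (median -0.25, and -0.02 over all genes, of which 37.8% differed in either direction). Of the partners and targets, 3 of 21 were higher in endocardial than Hapln1 cells, led by the connexin Gja5 (3.63), and 8 lower (median -0.40), where 19.1% of all genes were higher and 20.9% lower. In Hapln1 against Crabp1 cells 4 were higher and 6 lower (median -0.21), where 22.1% and 17.6% of all genes were. In epithelial against Crabp1 cells 2 were higher and 10 lower (median -0.94), where 19% and 18.8% of all genes were. Among the neighbours of the Iroquois clusters, Mmp2, a matrix protease near Irx6, was lower in ventricular than endocardial cells by -5.43 and Ces1d was higher in epithelial than Crabp1 cells by 8.16 (log2, edgeR). Of the 15 neighbours tested, 2 were higher and 2 lower in epithelial than Crabp1 cells, where 37.8% of all genes differed in either direction. In Hapln1 against Crabp1 cells 1 was higher and 7 lower, where 22.1% and 17.6% of all genes were. In endocardial against Hapln1 cells 3 were higher and 1 lower, where 19.1% and 20.9% of all genes were.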
